A study of Mus musculus with 9 samples.

Results

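The liver's resident macrophages, the Kupffer cells, were followed through 10 marker genes in whole-liver RNA: Clec4f, Cd5l, Vsig4, Adgre1, Marco, Timd4, Csf1r, Cd163, Cd14 and Lyz2. The genes were taken by name from the deposited gene table, which held 52151 entries, 26345 of which held a known transcript and were named. Each marker had 1 such entry, and all 10 were tested in every comparison. Another 6 entries carried the name of Adgre1 (4) or Timd4 (2) but were made only of transcripts assembled inside introns, and were left out. The values are FPKM, fragment numbers divided by transcript length and by library size, so that genes of different length can be compared.

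The 9 libraries came from livers of mice fed for 5 weeks, with an age of 8 weeks in the labels. The pair-fed mice (PF, 3 libraries) received the isocaloric control liquid diet, and the alcohol-fed mice (AF, 3 libraries) received the alcohol-containing Lieber-DeCarli liquid diet. The other 3 libraries (AF with MNA) came from mice on the alcohol diet that were also given MNA intraperitoneally every day at 50 mg/kg. The labels do not spell out MNA. The strain is given as C57BL/6 for PF and AF and as C57BL/7, C57BL/8 and C57BL/9 for the 3 libraries of AF with MNA. Feeding with alcohol is shared by AF and AF with MNA, and no library tests MNA without alcohol. The libraries were made from RNA depleted of ribosomal RNA, and total reads ranged from 57800660 to 82179248 (9 libraries). The whole liver was sequenced, so fewer macrophages and less RNA of a gene per macrophage cannot be told apart.

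Kupffer cells line the liver sinusoids, where they take up microbes, endotoxin, dying cells and old red cells from portal blood. They keep themselves by local division and depend on signals through the CSF1 receptor, and when they are lost, blood monocytes can take their place and slowly gain the same markers. Alcohol feeding is known to increase the endotoxin that reaches the liver, and endotoxin is recognised by macrophages through CD14 and TLR4. Of the 10 markers, Clec4f and Timd4 mark resident Kupffer cells in the mouse. Vsig4, Marco, Cd163 and Cd14 encode receptors for complement-coated particles, bacteria, haemoglobin bound to haptoglobin, and endotoxin. Cd5l encodes a secreted protein of tissue macrophages, Csf1r the receptor for the survival factors CSF1 and IL34, Adgre1 a pan-macrophage surface receptor, and Lyz2 a lysozyme shared by monocytes, macrophages and neutrophils.

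The promoters of Marco and Vsig4 are shown because in AF these were the markers whose 3 values lay entirely above (Marco) and entirely below (Vsig4) the 3 PF values. Each sequence holds the 250 bases before the start of the gene, from RefSeq (mouse build GRCm38.p6), read 5′ to 3′ in the direction of transcription. Capitals mark GAGGAA, a form of the core letters bound by PU.1, the myeloid transcription factor encoded by Spi1. The letters were searched on both strands (GAGGAA and its complement TTCCTC), and the motif was chosen with the results known.
Marco, chr1:120505025-120505274, minus strand: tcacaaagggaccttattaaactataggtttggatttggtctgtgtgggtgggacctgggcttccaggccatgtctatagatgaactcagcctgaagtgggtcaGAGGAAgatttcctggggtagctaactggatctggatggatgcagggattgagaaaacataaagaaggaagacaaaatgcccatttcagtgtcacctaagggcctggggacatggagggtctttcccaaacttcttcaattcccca
Vsig4, chrX:96293439-96293688, minus strand: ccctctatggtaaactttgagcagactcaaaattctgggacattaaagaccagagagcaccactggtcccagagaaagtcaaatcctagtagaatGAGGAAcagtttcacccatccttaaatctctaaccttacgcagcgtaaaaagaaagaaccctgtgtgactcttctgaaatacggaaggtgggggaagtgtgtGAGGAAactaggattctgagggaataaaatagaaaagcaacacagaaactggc
Marco held 1 copy, which began 146 bases before the start, and Vsig4 held 2, at 155 and 53 bases before it. Of the 7 markers in the promoter table, 3 (Cd5l, Vsig4 and Marco) held the motif in this window, against 23.3% of the 32851 promoters of that table. The copy of Cd5l began 66 bases before the start and was read on the complementary strand. Clec4f, Timd4, Cd163 and Lyz2 held none. Adgre1, Csf1r and Cd14 had no entry. The motif is a description of letters and no binding was measured.

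In PF livers the markers spanned levels from 0.64 to 36 FPKM. Cd5l was the most abundant, with 36.73, 39.64 and 31.48 FPKM in the 3 PF libraries (mean 36 ± 4.14 SD, n = 3). It was followed by Clec4f at 13.2 ± 2.21, Lyz2 at 9.93 ± 6.09, Csf1r at 9.08 ± 0.97 and Vsig4 at 8.86 ± 1.47 FPKM (SD, n = 3). Next came Adgre1 at 4.34 ± 1, Cd163 at 3.86 ± 1.38, Timd4 at 1.3 ± 0.395, Marco at 0.803 ± 0.245 and Cd14 at 0.64 ± 0.154 FPKM (SD, n = 3). The PF values of neighbours in this order overlapped except for 3 steps, between Cd5l and Clec4f, between Vsig4 and Adgre1, and between Cd163 and Timd4. In AF the order was Cd5l, Lyz2, Clec4f, Csf1r, Vsig4, Cd163, Adgre1, Marco, Timd4 and Cd14, and only Cd5l stood apart from its neighbour. Marco thus passed from the ninth place in PF to the eighth in AF and in AF with MNA, where it was separate from Adgre1 above it and overlapped with Timd4 below it. All 10 markers were above 0 in all 9 libraries, and together they came to 60.4 to 131 FPKM. Albumin (Alb), the main secreted protein of hepatocytes, had a mean of 14900 FPKM over the 9 libraries.

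**Figure D1:**
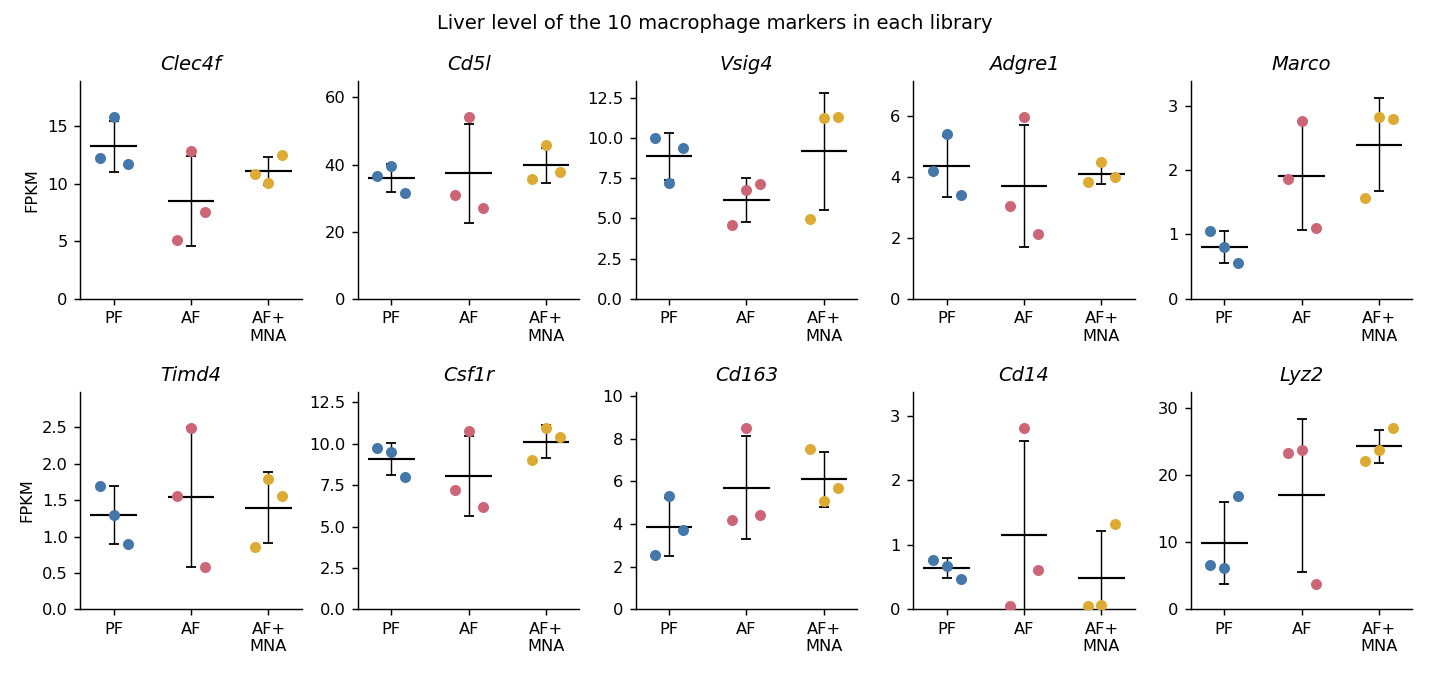
FPKM (linear axis from 0) of each marker in each of the 9 libraries, with the mean and SD of each group (bars below 0 are cut off). Marco lies between 0.56 and 1.05 FPKM in PF and between 1.1 and 2.82 FPKM in AF and AF with MNA, while most other markers overlap between groups.

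Alcohol against control feeding was compared first, which asks how the liver's gene levels differ after 5 weeks of alcohol. The bacterial scavenger receptor Marco was higher in AF, and the resident-cell lectin Clec4f and the complement receptor Vsig4 had lower means. None of the 10 markers had an adjusted p under 0.05 (limma, Benjamini-Hochberg over 12268 entries), a level reached by 0.326% of all tested entries, and a linear model with a library covariate gave none either. At an unadjusted p under 0.05 the count was 1 of 10, against 11.7% of all entries. With an unadjusted p under 0.05 and a log2 ratio of the group means above 1 or below -1, here called the threshold of the methods, 1 marker passed, Marco, where 4.3% of all entries passed (1.95% higher and 2.35% lower in AF). The study's methods state these limits for lncRNAs tested with Ballgown, and here they were applied to limma p-values of genes. The median difference of the 10 markers in log2(FPKM + 1) was 0.04, and that of all tested entries was -0.03. The sign of the markers' median turned with single libraries and settings: it was -0.31 without AF replicate 2, 0.24 without AF replicate 3, -0.07 without PF replicate 3, -0.18 for markers of at least 2 FPKM and -0.15 with the library covariate. 5 markers had a difference above 0 and 5 below 0, and 45.5% of all entries lay above 0. The groups did not overlap in 2 of 10 markers, Marco and Vsig4, against 18.3% of all entries.

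Marco read 1.05, 0.8 and 0.56 FPKM in the 3 PF libraries against 1.86, 2.77 and 1.1 FPKM in the AF libraries. The lowest AF value lay just above the highest PF value, so the groups did not overlap. The mean was 2.38-fold higher in AF (1.91 ± 0.836 against 0.803 ± 0.245 FPKM, SD, n = 3 each), and the difference in log2(FPKM + 1) was 0.66 (SE 0.23, 95% interval 0.10 to 1.22, limma unadjusted p = 0.0274, adjusted p = 0.365). Among all entries, 8.18% lay entirely above PF in AF. With a single library dropped the difference was lowest at 0.45 (AF replicate 2 left out) and highest at 0.87 (AF replicate 3 left out, limma unadjusted p = 0.00514, adjusted p = 0.179). Marco no longer met the threshold of the methods without PF replicate 2 (limma unadjusted p = 0.0622, adjusted p = 0.574), PF replicate 3 (0.0852 and 0.632), AF replicate 1 (0.0667 and 0.553) or AF replicate 2 (0.0685 and 0.491). The Marco entry of the table also takes in 1 transcript of 351 bases that was assembled inside an intron and was above 0 in 3 libraries. With that transcript taken out, a step added once the values were known, Marco came to 1.24, 0.946 and 0.611 FPKM in PF against 1.92, 3.28 and 1.3 FPKM in AF, again without overlap. This removal rests on the rule that an entry sums its transcripts by length, which gave 2384 of 2652 tested values of other entries (89.9%) within 0.005 FPKM.

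Among the markers of resident Kupffer cells, Clec4f and Vsig4 had lower means in AF, and Timd4 had no stable sign. Clec4f, a lectin that in the mouse is made by Kupffer cells, read 12.26, 15.75 and 11.67 FPKM in PF against 5.14, 12.82 and 7.51 FPKM in AF. AF replicates 1 and 3 lay under all PF libraries and AF replicate 2 lay among them. The difference in log2(FPKM + 1) was -0.65 (SE 0.30, 95% interval -1.38 to 0.07, limma adjusted p = 0.471). It was -0.38 without AF replicate 1 and -0.97 without AF replicate 2 (limma unadjusted p = 0.00483, adjusted p = 0.21). Timd4, the phosphatidylserine receptor with which resident cells take up dying cells, read 1.69, 1.3 and 0.9 FPKM in PF against 1.56, 2.49 and 0.58 FPKM in AF, a range that spans the PF values. Its difference was 0.09 (SE 0.30, 95% interval -0.63 to 0.81, limma adjusted p = 0.94), and -0.18 to 0.39 with a single library left out. Vsig4, the complement receptor, read 10.01, 7.2 and 9.38 FPKM in PF against 4.59, 6.79 and 7.11 FPKM in AF. All 3 AF values were lower, though the highest of them was within 0.1 FPKM of the lowest PF value. The difference was -0.47 (SE 0.20, 95% interval -0.94 to 0.00, limma unadjusted p = 0.0505, adjusted p = 0.429), and 10.1% of all entries lay entirely below PF in AF.

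Csf1r, Adgre1 and Cd5l overlapped between PF and AF. Csf1r read 9.75, 9.53 and 7.97 FPKM in PF against 7.18, 10.78 and 6.19 FPKM in AF (difference in log2(FPKM + 1) of -0.18, 95% interval -0.68 to 0.31, limma adjusted p = 0.779). Its difference ran from -0.39 to -0.03 with a single library left out. Adgre1 read 4.2, 5.4 and 3.41 FPKM in PF against 3.04, 5.95 and 2.11 FPKM in AF (difference of -0.25, 95% interval -0.99 to 0.50, limma adjusted p = 0.803). In both genes AF replicate 2 was the highest and AF replicate 3 the lowest of the 6 libraries. Cd5l, whose protein is carried in blood by immunoglobulin M, read 31, 54.09 and 26.93 FPKM in AF, on both sides of the PF values given above (difference of -0.01, 95% interval -0.65 to 0.64, limma adjusted p = 0.996). The intervals of these genes reach differences of 0.5 or more in at least one direction, so changes of that size were not excluded by 3 libraries against 3.

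Among the other uptake and endotoxin genes the spread within AF was larger than the distance between groups. Cd163, the haemoglobin scavenger receptor, read 2.56, 5.3 and 3.72 FPKM in PF against 4.2, 8.5 and 4.43 FPKM in AF (difference of 0.45, 95% interval -0.28 to 1.18, limma adjusted p = 0.62). Its difference ran from 0.17 to 0.65 with a single library left out. Cd14, the co-receptor for endotoxin, read 0.77, 0.68 and 0.47 FPKM in PF against 0.06, 2.81 and 0.61 FPKM in AF. The AF values lay on both sides of PF, and the difference was 0.19 (95% interval -0.87 to 1.25, limma adjusted p = 0.902). Lyz2 read 6.66, 6.17 and 16.96 FPKM in PF against 23.35, 23.81 and 3.86 FPKM in AF. AF replicates 1 and 2 lay above all PF libraries and AF replicate 3 lay below all of them. The difference was 0.52 (95% interval -1.16 to 2.21, limma adjusted p = 0.816). With a single library left out it ran from 0.13 to 1.3, the highest without AF replicate 3 (limma unadjusted p = 0.0266, adjusted p = 0.296). The near-identical paralog Lyz1 was listed between 0 and 0.07 FPKM in all 9 libraries, and reads shared by the 2 genes may have been assigned to either.

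**Figure D2:**
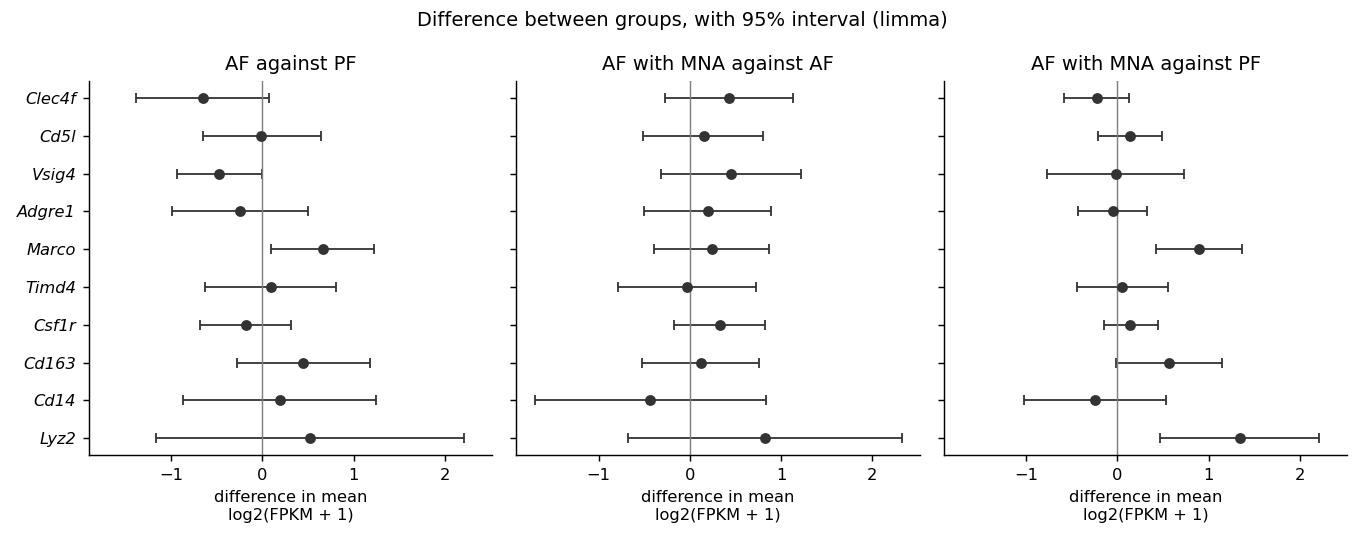
Difference of each marker between groups in mean log2(FPKM + 1), with its 95% interval from limma, for the 3 comparisons. The intervals of Marco against PF lie above 0 both in AF (0.10 to 1.22) and in AF with MNA (0.42 to 1.37), as does that of Lyz2 in AF with MNA (0.47 to 2.21).

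AF with MNA was then set against AF, the comparison in which the injected compound differs between alcohol-fed groups. No marker differed beyond the spread of the libraries. None of the 10 had an adjusted p under 0.05 (limma, 0.0491% of 12214 entries did), none had an unadjusted p under 0.05 (5.22% did), none passed the threshold of the methods (1.98% did), and none had groups that did not overlap (10.1% did). 8 of the 10 markers had a higher mean log2 level with MNA, where 52.4% of all entries did, and the median difference was 0.22 against 0.01 for all entries. That median rested on single libraries, with 0.01 without AF replicate 3, 0.14 without AF replicate 1 and 0.48 without AF replicate 2. These differences ran from -0.44 (Cd14) to 0.82 (Lyz2).

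With MNA, Clec4f read 10.86, 10.07 and 12.45 FPKM and Vsig4 4.95, 11.26 and 11.29 FPKM. Their means of 11.1 ± 1.21 and 9.17 ± 3.65 FPKM lay above those of AF, 8.49 ± 3.93 and 6.16 ± 1.37 FPKM (SD, n = 3 each). The libraries overlapped in both genes (differences in log2(FPKM + 1) of 0.43, 95% interval -0.27 to 1.13, and 0.45, -0.32 to 1.22, limma adjusted p = 0.966 and 0.97). For Clec4f the difference was 0.16 without AF replicate 1 and 0.74 without AF replicate 2. For Vsig4 it was 0.80 without AF with MNA replicate 1, 0.28 without AF replicate 1 and 0.27 without either of the other libraries of AF with MNA. Marco read 1.56, 2.82 and 2.8 FPKM with MNA, close to the AF values (difference of 0.24, 95% interval -0.39 to 0.87, limma adjusted p = 0.98). The difference of Marco ran from 0.02 to 0.45 with a single library left out. Lyz2 read 22.13, 23.77 and 27.03 FPKM, a narrow range at the level of AF replicates 1 and 2. Its difference from AF of 0.82 (SE 0.62) came to 0.04 without AF replicate 3. Cd14 read 0.06, 0.07 and 1.32 FPKM, with 2 libraries near 0 as in AF replicate 1. Csf1r read 9.02, 10.95 and 10.39 FPKM (difference of 0.33, 95% interval -0.17 to 0.82, limma adjusted p = 0.966), and Adgre1, Cd5l, Timd4 and Cd163 had differences from AF between -0.03 and 0.20.

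In AF with MNA against PF, which differ in alcohol and in MNA together, Marco and Lyz2 were higher. This comparison shares its PF libraries with the first one and its MNA libraries with the second. No marker had an adjusted p under 0.05 (limma, 0.432% of 12276 entries did), and the linear model with a library covariate again gave none. Marco and Lyz2 had an unadjusted p under 0.05, as did 14.5% of all entries. Marco and Lyz2 passed the threshold of the methods and lay entirely above PF, 2 of 10 markers in each case, against 3.89% of all entries at that threshold (1.94% higher) and 9.54% entirely above PF. Marco was 2.98-fold higher (2.39 ± 0.722 against 0.803 ± 0.245 FPKM, SD, n = 3 each), with a difference in log2(FPKM + 1) of 0.90 (SE 0.20, 95% interval 0.42 to 1.37, limma unadjusted p = 0.00352, adjusted p = 0.152). Lyz2 was 2.45-fold higher (24.3 ± 2.49 against 9.93 ± 6.09 FPKM, SD, n = 3 each), with a difference of 1.34 (SE 0.36, 95% interval 0.47 to 2.21, limma unadjusted p = 0.00913, adjusted p = 0.216). PF replicate 3 read 16.96 FPKM for Lyz2, and without it the difference was 1.77 with an adjusted p of 0.0269 (limma). Fitted with all 9 libraries in one model, Lyz2 had an unadjusted p of 0.0606 (limma adjusted p = 0.446), and Marco of 0.0054 (adjusted p = 0.195).

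The other markers of this comparison stayed within the spread. Cd163 read 7.52, 5.07 and 5.68 FPKM with MNA, of which only the second was below the highest PF value (difference of 0.57, 95% interval -0.01 to 1.15, limma adjusted p = 0.352). Cd5l read 35.6, 45.74 and 37.92 FPKM, Adgre1 3.82, 4.48 and 3.99 FPKM and Timd4 0.85, 1.79 and 1.55 FPKM, all overlapping with PF. The 95% intervals of the differences were -0.21 to 0.49 for Cd5l, -0.43 to 0.32 for Adgre1, -0.15 to 0.44 for Csf1r and -0.44 to 0.55 for Timd4. Those of Vsig4 (difference -0.02, -0.77 to 0.73) and Cd14 (-0.24, -1.02 to 0.53) were wider, and with the library covariate Vsig4 came to -0.42. Clec4f differed by -0.22 (95% interval -0.58 to 0.13, limma adjusted p = 0.548). The median difference of the 10 markers was 0.10, and that of all entries -0.02. With a single library left out the markers' median lay between -0.01 (AF with MNA replicate 2) and 0.22 (AF with MNA replicate 1), and with the library covariate it was -0.15.

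To compare the markers with each other within a library, each was divided by Csf1r of the same library, a step added once the values were known. Marco stood at 0.108, 0.0839 and 0.0703 of Csf1r in PF, at 0.259, 0.257 and 0.178 in AF and at 0.173, 0.258 and 0.269 in AF with MNA. All 6 alcohol-fed libraries were above all 3 PF libraries, and the mean log2 ratio was 1.41 higher in AF and 1.41 higher in AF with MNA (exact permutation p = 0.1 each, two-sided, the smallest that 3 against 3 allow). Among all entries divided by Csf1r, 6.82% were entirely higher in AF than in PF and 3.62% in AF with MNA than in PF. Divided by Adgre1 the differences of Marco were 1.54 and 1.63, without overlap, as for 3.95% and 6.29% of all entries. Divided by Cd5l they were 1.2 and 1.43, without overlap, as for 3.02% and 3.57%.

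Clec4f lay lower than PF on this scale. It stood at 1.26, 1.65 and 1.46 of Csf1r in PF, at 0.716, 1.19 and 1.21 in AF and at 1.2, 0.92 and 1.2 in AF with MNA. The groups did not overlap with PF (log2 differences of -0.52 and -0.40, exact permutation p = 0.1 each), though the highest AF ratio was near the lowest PF ratio, and divided by Adgre1 they overlapped in both comparisons (-0.39 and -0.18, exact permutation p = 0.4 each). Divided by Cd5l, Clec4f was again entirely lower than PF in both (-0.72 and -0.39, exact permutation p = 0.1 each). There the highest ratio with MNA (0.328) was near the lowest in PF (0.334). Of all entries divided by Csf1r, 2.16% were entirely lower in AF than in PF and 16.1% in AF with MNA than in PF. Cd163 divided by Csf1r was higher in all AF libraries than in PF (0.585 to 0.788 against 0.263 to 0.556), and so was Cd5l (4.32 to 5.02 against 3.77 to 4.16). With MNA both overlapped with PF, and Cd5l divided by Csf1r was lower than in AF in all 3 libraries (3.65 to 4.18), as were 8.26% of all entries. The pattern of Cd5l depended on the reference, as did that of Cd163 with MNA. Divided by Adgre1, Cd5l overlapped between AF and PF (9.09 to 12.8 against 7.34 to 9.23) and between AF with MNA and AF, and lay above PF with MNA (9.32 to 10.2). Cd163 divided by Adgre1 lay above PF (0.61 to 1.09) both in AF (1.38 to 2.1) and with MNA (1.13 to 1.97). Divided by Cd5l, Cd163 lay just above PF (0.0697 to 0.134) in AF (0.135 to 0.165) and overlapped with PF with MNA (0.111 to 0.211). Lyz2 divided by Csf1r was apart from PF only with MNA (2.17 to 2.6 against 0.647 to 2.13), also when divided by Adgre1, and overlapped with PF when divided by Cd5l. Vsig4, which lay below PF in AF as FPKM, overlapped with PF when divided by Csf1r (0.63 to 1.15 against 0.756 to 1.18) and when divided by Adgre1 (1.14 to 3.37 against 1.33 to 2.75). Timd4 and Cd14 divided by Csf1r overlapped with PF in both groups, and Adgre1 did in AF and was lower with MNA (0.384 to 0.424 against 0.428 to 0.567). Csf1r itself is a marker of the list, so these ratios depend on its level in each library.

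**Figure D3:**
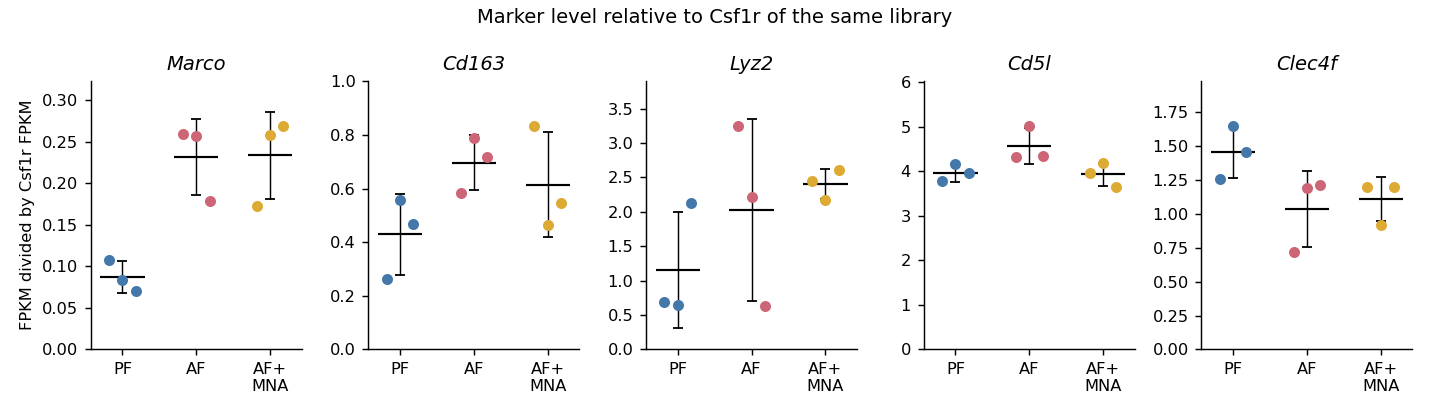
FPKM of 5 markers divided by the FPKM of Csf1r in the same library (linear axis from 0), with the mean and SD of each group. Marco lies between 0.0703 and 0.108 in PF and between 0.173 and 0.269 in the 6 alcohol-fed libraries, and Clec4f between 1.26 and 1.65 in PF and between 0.716 and 1.21 in the others.

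Much of the spread within groups was shared by the markers of a library. AF replicate 2 held the highest value within AF for 9 of 10 markers, all but Vsig4, and AF replicate 3 was below the mean of the 9 libraries for 10 of 10. The 10 markers summed to 82, 131 and 60.4 FPKM in AF, to 85.7, 91.8 and 86.5 FPKM in PF and to 96.4, 116 and 114 FPKM in AF with MNA. AF thus held both the highest and the lowest sum of the 9 libraries. AF replicate 2 also had the highest Hmox1 (159.91 FPKM, against 4.8 to 19.79 in the other 8 libraries), a haem-degrading enzyme induced by stress, and the highest haemoglobin gene Hbb-bs (391.05 FPKM against 155.59 to 236.11). AF replicate 3 had the most signal in transcripts assembled inside introns (9433 FPKM summed over transcripts, against 3802 and 4239 in the other AF libraries). Next to it came AF with MNA replicate 1 (8934 against 2477 and 3473 in its group), which held the lowest value of its group for 8 of 10 markers. The part of these library differences in the results was not tested. Without both libraries of high intron signal, none of the 10 markers had an adjusted p under 0.05 in AF with MNA against AF (limma). None had one with all libraries either, so this count cannot show the part of those libraries. The differences of Adgre1 and Cd163 turned sign without them, as given below.

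**Figure D4:**
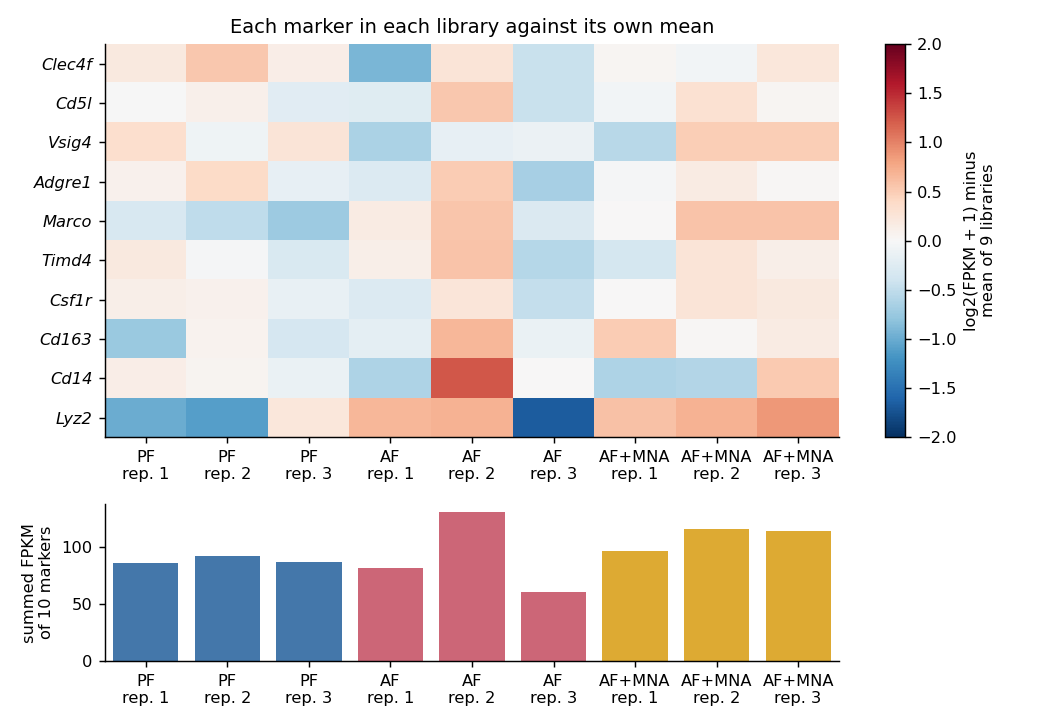
Upper panel: log2(FPKM + 1) of each marker in each library minus the marker's mean over the 9 libraries, as colour. Lower panel: the summed FPKM of the 10 markers (linear axis from 0), highest in AF replicate 2 (131 FPKM) and lowest in AF replicate 3 (60.4 FPKM).

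Over the 9 libraries the 45 pairs of markers had a median Pearson r of 0.46 in log2(FPKM + 1), with 7 pairs above 0.7 and 5 below 0. The tightest were Cd5l with Adgre1 (r = 0.91) and Cd5l with Csf1r (r = 0.90). Marco with Csf1r had r = 0.52 over all libraries and r = 0.91 after the group means were taken out, and Marco with Timd4 0.63 and 0.98. Marco and Clec4f had r = -0.13 over all libraries and 0.42 within groups. The points are the same 9 libraries for every pair and carry each library's depth and group, and these values are descriptions. Vsig4 and Cd163, which both encode uptake receptors, had the lowest r (-0.35).

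Among 12252 gene entries with a mean of at least 0.5 FPKM, genes other than the markers were ranked by their Pearson r with each marker over the same 9 libraries. Nearest to Marco were Emc7, Serpina3g and Lgals3 (r = 0.97 each), of which Lgals3 encodes galectin-3, a lectin of macrophages. Timd4 was nearest to Itgb2 (0.95), the beta subunit of leukocyte integrins, Laptm5 (0.93), a lysosomal protein of blood cells, and Nnmt (0.92). Csf1r was nearest to Dock2 (0.95), a leukocyte migration factor, Rfc5 (0.95) and Cfp (0.94), the complement factor properdin. For Cd5l the nearest were Fermt3 (0.96), the integrin activator of blood cells, Ttll8 (0.95) and Dnajc13 (0.93). For Adgre1 they were Aff4 (0.94), Fermt3 (0.93) and Ptrhd1 (0.93). Clec4f was nearest to Paip1 (0.94), Cldn2 (0.91) and Chp1 (0.91), and Vsig4 to Gm45775 (0.96), Gm42836 (0.95) and Mgst1 (0.94). Cd163 was nearest to Slc2a1 (0.97), Slc25a22 (0.96) and Gm45872 (0.94), and Cd14 to Slc9a3r1 (0.91), Tmem120a (0.91) and Rcl1 (0.89). Lyz2 was nearest to Mrps2 (0.97), Nubpl (0.95) and 4930500M09Rik (0.93). With 9 libraries and 12252 entries compared, a high r can arise without any shared role, and none of these values was tested.

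The other genes of the macrophage programme were described with the same fits, and none of them had an adjusted p under 0.05 in any of the 3 comparisons. The counts below stand against 4.3% of all entries past the threshold of the methods in AF against PF, 1.98% in AF with MNA against AF and 3.89% in AF with MNA against PF, and the medians against -0.03, 0.01 and -0.02 for all entries. Of 8 tested Kupffer cell identity genes beside the markers, 1 passed the threshold of the methods in AF, the terminal complement component C6, which was lower (27.2 ± 9.6 FPKM in PF against 5.49 ± 4.09 in AF, SD, n = 3 each, limma unadjusted p = 0.00217, adjusted p = 0.144). The C6 values were 28.18, 36.3 and 17.17 FPKM in PF against 2.98, 10.21 and 3.29 FPKM in AF, and with MNA they were 3.25, 8.42 and 9.27 FPKM, so that no alcohol-fed library reached the lowest PF value. Most of the list did not go with C6. In AF against PF, 5 of the 8 genes had a difference above 0, as did 45.5% of all entries. Hmox1 and Cd38 lay entirely above PF in AF, 2 of 8, where 8.18% of all entries did. In AF with MNA against PF, C6 was again lower (limma adjusted p = 0.154), and Hmox1 (5.93 ± 0.979 to 15.5 ± 6.12 FPKM, SD, n = 3 each, adjusted p = 0.218) and the transcription factor Id3 (1.44 ± 0.636 to 3.4 ± 1.56 FPKM, adjusted p = 0.292) were higher at that threshold. There 7 of 8 had a difference above 0, as did 47.2% of all entries. An unadjusted p under 0.05 (limma) was reached by 6 higher genes and 1 lower gene, against 14.5% of all entries. Entirely above PF lay 5 of 8 (Fcna, Slc40a1, Id3, Cd38 and Hmox1), where 9.54% of all entries did. The median difference of the tested genes was 0.26 in AF against PF, where it was 0.15 without PF replicate 2, 0.16 without AF replicate 2, 0.51 for genes of at least 2 FPKM and 0.05 with any entry above 0 tested. It was 0.42 in AF with MNA against PF, and 0.32 to 0.50 with a single library left out. Genes of this list are also made by other liver cells, so C6, Hmox1 and Id3 are not specific to macrophages in whole liver.

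Of 11 tested general macrophage genes, none passed the threshold in AF, and Lgals3 passed it with MNA against PF, where it was higher (0.49 ± 0.166 to 1.05 ± 0.299 FPKM, SD, n = 3 each, limma adjusted p = 0.279). Its PF mean lay under the minimum of 0.5 FPKM, so it entered this test through the group where it was higher. Of 10 tested scavenger, lectin and Fc receptor genes, none passed in AF and the lipid scavenger receptor Cd36, which hepatocytes and endothelium also make, passed with MNA against PF (5.28 ± 1.38 to 13.4 ± 1.56 FPKM, SD, n = 3 each, limma adjusted p = 0.0907). Of 9 tested genes of endotoxin recognition, Lbp, the endotoxin-binding protein that hepatocytes secrete into blood, passed in AF (18.3 ± 6.33 to 43.5 ± 12.9 FPKM, SD, n = 3 each, limma adjusted p = 0.211). Tlr4, the endotoxin receptor, stayed between 0.1 and 0.59 FPKM in all libraries and was below the minimum for testing. Of 6 tested genes of CSF1 receptor ligands and survival signals none passed in any comparison, with Csf1 between 1.54 and 2.24 FPKM and Il34 between 0.64 and 1.39 FPKM. Among cytokines and chemokines, Cxcl10 passed with MNA against AF (0.55 ± 0.205 to 1.11 ± 0.37 FPKM, SD, n = 3 each, limma adjusted p = 0.94). Of the 14 genes of this list 4 could be tested in AF against PF (median difference 0.37, and 0.12 to 0.63 with a single library left out), 6 in AF with MNA against AF (0.02) and 5 in AF with MNA against PF (0.31). The chemokine Ccl6 lay above all PF libraries in AF (2.21, 10.63 and 2.29 against 1.63, 1.36 and 1.6 FPKM, limma adjusted p = 0.502), as did 8.18% of all entries. With MNA it read 1.33, 7.0 and 5.42 FPKM and overlapped with PF. Ccl2, a chemokine that attracts monocytes, was below the minimum for this test, with 0.43, 0.41 and 0.56 FPKM in AF against 0.14, 0.02 and 0 FPKM in PF. Tnf, Il6 and Il10 did not exceed 0.16 FPKM in any library.

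Most markers of recruited cells were under 0.5 FPKM. Of 9 genes of recruited monocytes and lipid-associated macrophages, 2 reached the mean of 0.5 FPKM needed for a test, Cd9 (2.89 to 6.86 FPKM over the 9 libraries) and Plac8 (0.9 to 2.42 FPKM), and neither passed the threshold of the methods. Cd9, a membrane protein that many cell types make, was lower in all libraries of AF with MNA than in AF (3.51 ± 0.556 against 5.72 ± 0.395 FPKM, SD, n = 3 each, limma unadjusted p = 0.00451, adjusted p = 0.919). Ccr2, Ly6c2, Trem2, Gpnmb and Chil3 did not exceed 0.16 FPKM in any library. None of the 8 neutrophil genes had a mean of 0.5 FPKM or more. The highest single values were 0.92 FPKM for S100a8 and 0.59 FPKM for Retnlg, both in AF replicate 1, and the sum of the 8 genes was 0.32 to 0.95 FPKM in PF, 0.97 to 2.08 FPKM in AF and 0.32 to 0.96 FPKM with MNA. Lyz2 is also made by neutrophils, and their part in its level was not tested. T and NK cell genes and B cell genes summed to at most 1.72 and 0.9 FPKM in any library. Of the 5 tested pan-leukocyte genes none passed in any comparison, with Laptm5 between 2.38 and 5.39 FPKM and Cd53 between 1.66 and 3.47 FPKM over the 9 libraries. The median difference of the 5 was -0.03 in AF against PF, and -0.18 without AF replicate 2. It was 0.12 in AF with MNA against AF and 0.02 in AF with MNA against PF, where it ran from -0.06 to 0.16 with a single library left out.

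Other cells of the sinusoid were checked beside the markers. All 9 sinusoidal endothelial genes had a positive difference in AF against PF, where 45.5% of all entries did (median 0.38), and 8 of 9 in AF with MNA against PF (median 0.51, 47.2% of all entries), and none passed the threshold of the methods in either. The most abundant were Stab1, a scavenger receptor (7.11 to 11.59 FPKM over the 9 libraries), and the lectin Clec4g (5.07 to 13.67 FPKM). The exception with MNA was Gpr182, an endothelial chemokine-binding receptor listed at 0.02 FPKM in AF with MNA replicate 2 and at 5.63 to 11.88 FPKM in the other 8 libraries. Single values near 0 also occurred in C1qc (0.29 to 7.74 FPKM over the 9 libraries) and in Cd14. The part of the endothelial genes in the marker results was not tested. The red-cell gene Alas2 was lower at the threshold of the methods in AF (40.6 ± 3.12 to 11.2 ± 6.16 FPKM, SD, n = 3 each, limma adjusted p = 0.108) and in AF with MNA (to 18.1 ± 9.22 FPKM, adjusted p = 0.275). The other red-cell gene tested, Hbb-bs, had a mean of 194 ± 37.5 FPKM in PF, 261 ± 120 in AF and 198 ± 34.4 with MNA (SD, n = 3 each, limma adjusted p = 0.747 and 0.965 against PF). None of the 7 stellate cell and 6 hepatocyte genes passed in any comparison, nor did the 1 tested gene each of dendritic cells (Clec9a) and bile duct cells (Sox9).

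**Figure D5:**
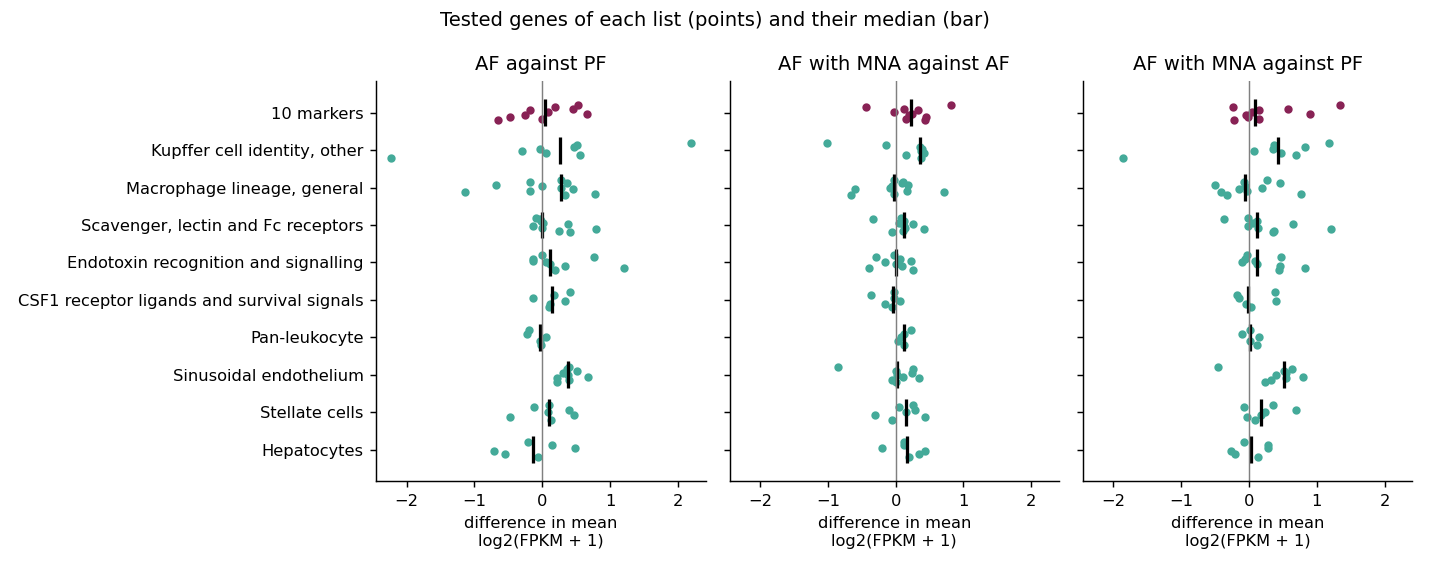
Difference in mean log2(FPKM + 1) of every tested gene of the 10 markers and of 9 other lists (points) with the list's median (bar), in the 3 comparisons. The 10 markers lie on both sides of 0 in AF against PF (median 0.04), and the sinusoidal endothelial genes lie above 0 there (median 0.38).

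Of the 4486 circRNAs in the circRNA table, 4 came from a marker, all of them from Adgre1. They held 0 back-splice junction reads in PF, 6 in AF and 2 in AF with MNA over the 3 libraries of each group. A count of this size gives no comparison between groups.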

How the data were processed

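Liver RNA of 9 libraries was read from tables that the authors deposited. The deposited FPKM were made by the authors with StringTie (1.3.4 in the submitters' processing notes, which also list HISAT2, TopHat, cutadapt 1.9, FastQC and edgeR), to 2 decimals for genes. Deposited circRNA counts, and transcript coverage and scaled circRNA values (signal), served for depth and for the circRNAs and intronic transcripts of the markers: total reads of 57800660 to 82179248 and a coverage of 5.84 to 8.3 at 1 FPKM. The files' build was not given in the sources used here. Groups follow the labels, which do not say whether replicates are separate animals, so p-values measure the spread between these libraries.

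Entries that held a known transcript and a name were tested if they averaged 0.5 FPKM or more across both groups, as log2(FPKM + 1), with limma 3.58.1 (eBayes with an intensity trend) in R 4.3.3, two-sided, with Benjamini-Hochberg adjustment. This scale understates changes of low genes. The fit was tested on simulated data. Ratios had exact permutation tests (scipy 1.17.1). All 10 markers were named, and of each other list the genes past either threshold (at most 4, by p), otherwise up to 2 of the highest level. Cd38, Fcna, Slc40a1, Tlr4, Csf1, Il34, Tnf, Il6, Il10, Ccl2, Ccl6, Ccr2, Ly6c2, Trem2, Gpnmb, Chil3, S100a8, Retnlg, Gpr182, C1qc and Hbb-bs were chosen after their values were seen. Up to 3 genes most like each marker were named. The markers and lists were chosen with earlier results of these data known. Alternatives covered the pseudocount, scaling, filters, variance prior, libraries in the fit, a replicate block, a library covariate, entries tested and each library left out.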

Additional observations from a re-analysis of the deposited data

Results flagged for a closer look

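The circRNAs of Adgre1, which were not part of the comparisons of gene levels, had a few back-splice junction reads in the alcohol-fed groups and none in PF. The sums over 3 libraries were 6 reads in AF, 4 of them in AF replicate 2, and 2 in AF with MNA, both in replicate 3, against 0 in PF. So few reads give no comparison between groups, and none was tested.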

How the results depend on the processing

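No marker had an adjusted p under 0.05 in any comparison, and with other settings this held with 1 exception: in AF with MNA against PF the count ranged from 0 to 1 with a library left out, 1 without PF replicate 3 (Lyz2, difference 1.77, adjusted p = 0.0269). With the replicate number as a replicate block the counts were also 0, 0 and 0. Over all entries the block moved the calls from 40 to 18 in AF against PF, from 6 to 1 in AF with MNA against AF and from 53 to 0 in AF with MNA against PF, and the covariate model gave 0, 1 and 0. With all 9 libraries in one fit AF against PF gave 86 and AF with MNA against AF 0, with any entry above 0 tested the counts were 25, 2 and 22, and a minimum of 2 FPKM gave 2 in AF with MNA against AF. With a library left out they ran from 25 to 47, from 6 to 13 and from 23 to 46. The replicate numbers did not pair the libraries: deviations of same-numbered libraries had correlations between -0.0791 and 0.0624. The markers past the threshold of the methods numbered 0 to 2 in AF against PF, 0 in AF with MNA against AF and 1 to 3 in AF with MNA against PF. A minimum of 2 FPKM left Marco out of the comparisons with PF.

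Of 472 other fits of the difference of a marker, 436 kept direction and call, 35 turned direction and 1 gained a call. No turned value belonged to Marco, Lyz2, Clec4f or, in AF against PF, Vsig4, and no marker had a call in the main fits. In AF against PF, Cd14 turned to -0.08 with a pseudocount of 0.1 and to -0.06 with the covariate, Timd4 to -0.11 with the covariate, and Cd5l to 0.03 and 0.04 with libraries scaled to the same median or 75th percentile. In AF with MNA against AF, Timd4 turned to 0.01 with the pseudocount and 0.00 with the covariate. In AF with MNA against PF, Vsig4 turned to 0.01 with the 75th percentile, and with the covariate Cd5l turned to -0.07, Timd4 to -0.26 and Csf1r to -0.02. Without AF replicate 3 and AF with MNA replicate 1, a setting chosen with the data seen and not counted above, Adgre1 and Cd163 turned in AF with MNA against AF to -0.02 and -0.14. With 1 library left out, the ranges in AF against PF were -0.3 to 0.19 for Cd5l, -0.18 to 0.39 for Timd4, -0.32 to 0.6 for Cd14 and -0.57 to 0.01 for Adgre1. In AF with MNA against AF they were -0.34 to 0.23 for Timd4, -0.03 to 0.4 for Cd163, -0.84 to 0.08 for Cd14, -0.05 to 0.44 for Cd5l and -0.06 to 0.52 for Adgre1. In AF with MNA against PF they were -0.2 to 0.33 for Vsig4, -0.18 to 0.09 for Adgre1 and -0.08 to 0.23 for Timd4. The cause was not tested.

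Marco, Timd4 and Cd14 stayed under 3 FPKM in all 9 libraries, and since the FPKM tables hold no counts, the counting error of such low values is unknown.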
